A study of Homo sapiens with 5 samples.

Results

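Receptor tyrosine kinases outside the Eph family were followed in RNA-Seq counts from NCI-H209, an established human small-cell lung cancer (SCLC) cell line. They were 43 genes, chosen by symbol as transmembrane kinases and kinase-like receptors, of the 64837 entries in the count files. The control group held 3 libraries of untreated NCI-H209 cells grown in RPMI-1640 with fetal bovine serum. The co-cultured group held 2 libraries of the same cells kept for 24 h with human brain microvascular endothelial cells (HBMECs), which sat on a Transwell insert and shared the medium. Both groups were 1 cell line, and whether the control wells held an empty insert is not given in the sources used here. The comparison asked which receptors the tumor cells carried more or less transcript of after sharing medium with endothelial cells. Because the libraries were made from bulk RNA, a smaller share of cells with a transcript and less transcript per cell cannot be told apart.

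A receptor tyrosine kinase binds its ligand outside the cell, in most cases pairs with another receptor chain, and phosphorylates tyrosines on its inner tail. Adaptor proteins dock on these tyrosines and pass the signal to the RAS-MAPK and PI3K-AKT pathways, while ubiquitin ligases, phosphatases and feedback inhibitors switch it off. The ERBB receptors and MET are drug targets in lung adenocarcinoma, and KIT, FGFR1 and IGF1R have been studied as growth receptors in SCLC. A few members, such as PTK7, RYK, ERBB3 and STYK1, have a kinase domain with little or no catalytic activity.

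The sense-strand totals were 17317045 to 19157348 reads in the control libraries and 15457071 and 18918787 reads in the co-cultured libraries. Of all entries, 20360 had enough reads to be tested. Values are given as CPM, sense counts scaled by TMM to a common library size of 1e6, so that 3 reads correspond to 0.154 to 0.198 CPM in a library. Unmapped reads were 8.13% to 8.48% of the control libraries against 15.9% and 16.8% of the co-cultured libraries, and the part of this gap in the results below was not tested. The SCLC identity was checked on 12 neuroendocrine markers, whose summed level was 2090 to 2608 CPM in control and 2632 and 2758 CPM in co-culture, although CHGA, which encodes chromogranin A, had at most 1 read in any library. For HBMEC RNA, 15 endothelial markers were summed. They came to 9.93 to 15.9 CPM in control and 12.6 and 13.1 CPM in co-culture, with PLVAP, MMRN1 and ECSCR at 0 in all 5 libraries. Control replicate 3 was the lowest, so both co-cultured libraries lay above it. ERG and EGFL7 carried the opposite-strand mark described below. PECAM1 had 14, 10 and 3 sense reads in control and 18 and 11 in co-culture, and ERG 70, 64 and 55 against 52 and 41. Of the 6 endothelial markers tested, ESAM alone was called higher, with 3, 4 and 6 reads in control and 21 and 14 reads in co-culture. The 12 fibroblast and pericyte markers summed to 29.3 to 35.5 CPM in control and 27.5 and 31.6 CPM in co-culture. The sum hides single genes. DCN had 27, 39 and 0 sense reads in control and 3 and 1 in co-culture. LUM had 20, 19 and 0 against 0 and 2. Both had at most 1 opposite-strand read in any library, so the strand mark used below cannot flag them. FBN1, with 79, 93 and 87 against 47 and 49, and COL6A3, with 42, 43 and 33 against 38 and 41, lacked this split. Its cause was not tested.

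Reads on the wrong strand divided the receptors before any comparison was made. In a directional library nearly all reads of a gene fall on its sense strand, yet many receptor genes also held antisense reads, and far more of them in control replicates 1 and 2. A gene was marked when its opposite-strand level in these 2 libraries was over 4 times that in the other 3, with a mean of at least 10 such reads. The mark fell on 25 of the 43 receptors, against 0.81% of all genes tested. ALK, a receptor of the nervous system, held 178 and 121 opposite-strand reads in control replicates 1 and 2 and none elsewhere, and its sense reads were 182 and 96 there against 1, 0 and 1 in control replicate 3 and the co-cultured libraries. The reads of FGFR2 followed the same split, with 85 and 56 sense and 79 and 44 opposite-strand reads in these 2 libraries and no read of either kind in the other 3. For a marked gene the sense reads of those 2 libraries may not all be its own transcript, so control replicate 3 was set beside each value as the check. AXL lay just inside the threshold at a ratio of 4.11, followed by FLT1 at 5.64 and INSR at 6.12. IGF1R at 3.18, ERBB3 at 3.17 and FGFR1 at 2.66 lay just outside it, so they too held more opposite-strand reads in control replicates 1 and 2.

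**Figure D1:**
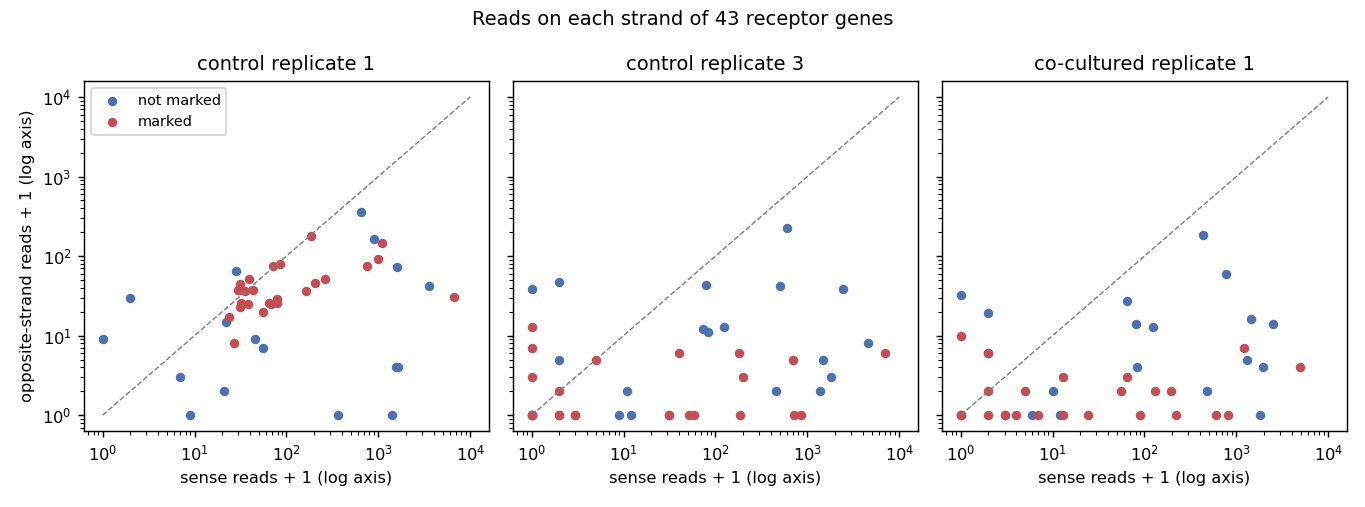
Sense reads plus 1 (x axis, log scale) against opposite-strand reads plus 1 (y axis, log scale) for the 43 receptors in control replicate 1, control replicate 3 and co-cultured replicate 1, with the 25 marked receptors in red, the 18 others in blue and the line of equal counts dashed. In control replicate 1 many marked receptors sit along the dashed line, as ALK does with 182 sense and 178 opposite-strand reads, while in the other panels most of them drop to near 0 opposite-strand reads.

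Promoters of 4 called receptors are shown: EGFR and LMTK2 were called higher and IGF1R and ERBB2 lower. The calls of EGFR and ERBB2 were lost in some fits, as given below. Each runs from 250 bases before to 50 bases after the RefSeq start on GRCh38.p14, 5′ to 3′, and capitals mark the GC box GGGCGG, read on either strand.
EGFR, chr7:55018767-55019066, + strand: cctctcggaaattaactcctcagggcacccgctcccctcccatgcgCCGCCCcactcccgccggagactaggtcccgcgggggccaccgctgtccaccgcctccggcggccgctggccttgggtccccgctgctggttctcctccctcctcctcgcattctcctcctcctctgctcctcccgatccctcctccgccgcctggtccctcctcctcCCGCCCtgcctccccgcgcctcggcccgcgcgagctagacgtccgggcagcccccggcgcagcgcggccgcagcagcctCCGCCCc
LMTK2, chr7:98106612-98106911, + strand: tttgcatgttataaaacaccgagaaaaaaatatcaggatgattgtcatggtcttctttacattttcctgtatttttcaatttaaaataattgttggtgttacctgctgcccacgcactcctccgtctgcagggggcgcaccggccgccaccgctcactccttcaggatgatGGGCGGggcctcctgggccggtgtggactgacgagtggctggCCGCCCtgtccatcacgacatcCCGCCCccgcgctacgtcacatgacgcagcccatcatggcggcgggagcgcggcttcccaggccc
IGF1R, chr15:98648289-98648588, + strand: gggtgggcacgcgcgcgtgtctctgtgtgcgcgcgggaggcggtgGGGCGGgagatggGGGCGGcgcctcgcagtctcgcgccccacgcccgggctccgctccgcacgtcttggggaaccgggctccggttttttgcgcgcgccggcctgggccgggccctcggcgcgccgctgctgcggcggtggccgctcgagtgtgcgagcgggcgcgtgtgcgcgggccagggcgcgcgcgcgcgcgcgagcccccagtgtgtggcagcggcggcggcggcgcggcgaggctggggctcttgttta
ERBB2, chr17:39687844-39688143, + strand: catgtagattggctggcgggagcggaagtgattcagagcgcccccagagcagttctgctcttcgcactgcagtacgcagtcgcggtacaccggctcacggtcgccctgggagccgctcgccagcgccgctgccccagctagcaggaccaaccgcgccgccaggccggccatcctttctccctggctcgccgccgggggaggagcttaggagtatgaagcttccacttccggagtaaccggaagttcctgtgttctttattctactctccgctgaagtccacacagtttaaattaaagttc
The GC box, a site for Sp1-type factors, occurred 3 times in the EGFR and LMTK2 windows, 2 times in that of IGF1R and not in that of ERBB2. It was present in 45.0% of 35116 RefSeq promoters of this length and in 26 of the 38 receptors that matched the table. Each window is at the RefSeq start nearest the annotated start of the gene, 180 bases from it for ERBB2. The ERBB2 window lies within PGAP3 on the other strand, and windows at other ERBB2 starts were not examined. The letters of the TATA box, TATAAA, were in 3 of the 38 receptors, against 11.5% of all promoters. Of the windows shown they were in that of LMTK2, near its upstream end and far from the RefSeq start. The hypoxia response core ACGTG was in that of IGF1R and in 7 of the 38, against 21.4%. The AP-1 site TGACTCA was in none of the windows shown and in 2 of the 38, against 4.95%. The windows of EGFR and IGF1R were 75.33% and 79.67% G and C, that of LMTK2 57%, and the median promoter 58.67%.

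INSR, the insulin receptor, was the most abundant member. In control replicate 3, per kilobase of exon, INSR stood at 34.0 CPM, IGF1R at 16.6, ERBB3 at 13.7, PTK7 at 10.3, RYK at 9.44, KIT at 7.89, LMTK2 at 7.66 and STYK1 at 6.82 CPM. MET followed at 5.2, ERBB2 at 3.01, EGFR at 2.89, FGFR3 at 1.91 and FGFR1 at 1.85 CPM per kilobase. In the co-cultured mean INSR kept the top place at 26.1 CPM per kilobase, followed by PTK7 at 11.4, LMTK2 at 10.7, RYK at 9.16, IGF1R at 9.02 and ERBB3 at 8.58. RYK and IGF1R, and IGF1R and ERBB3, lie close in this order, and no test between genes was made. Without length correction, 13 members reached 10 CPM in control replicate 3, and 19 stayed under 1 CPM there and in both co-cultured libraries. The 19 include DDR1 by its primary entry alone, whereas its 5 entries summed to 2.99 to 4.26 CPM.

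**Figure D2:**
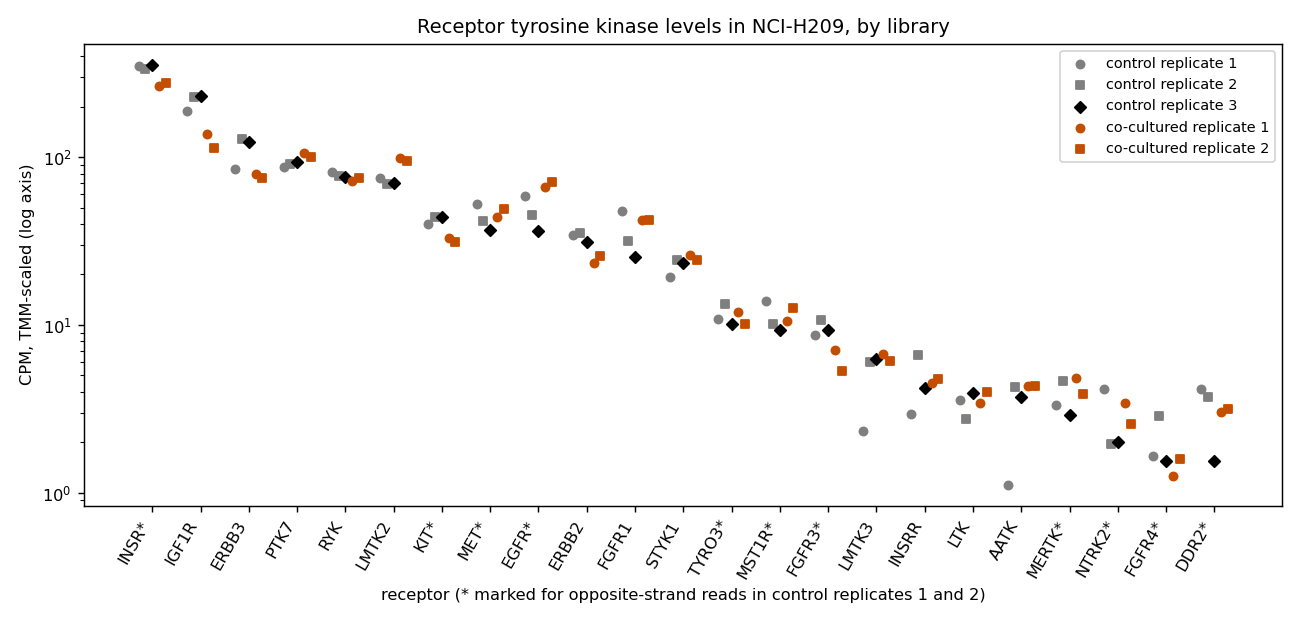
Level in CPM (y axis, log scale) of the 23 receptors (x axis) with at least 1 CPM in control replicate 3 and both co-cultured libraries, with a point for each of the 3 control libraries (grey and black) and 2 co-cultured libraries (orange), and a star on the 11 marked receptors. INSR is highest with 337 to 355 CPM in control and 267 and 278 CPM in co-culture, and IGF1R shows a clear step down from 189 to 232 CPM to 137 and 114 CPM.

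Of the 18 unmarked receptors 15 had enough reads to be tested. LMTK2 was called higher, and IGF1R, ERBB2 and ERBB3 were called lower, at a Benjamini-Hochberg adjusted p under 0.05 in edgeR quasi-likelihood fits. This is 6.67% higher and 20% lower, against 18.4% higher and 15% lower of all genes tested, so the share called, 26.7%, was not above the 33.4% of all genes. The co-cultured libraries lay above all control libraries in 4 of the 15 (LMTK2, PTK7, STYK1 and AATK) and below all of them in 4 (IGF1R, ERBB2, ERBB3 and RYK), where 29.4% of all genes lay above and 30.0% below. ROR2, MUSK and TIE1 were not tested, with 4 to 8, 0 to 1 and 0 to 1 sense reads. All 25 marked receptors were tested, and EGFR was called higher and ERBB4, INSR, KIT, FGFR3, ALK, ROS1 and FGFR2 lower, of which ERBB4 alone was called when either co-cultured library was left out. Of the unmarked receptors, 1 was called lower without co-cultured replicate 1 and 1 without co-cultured replicate 2, and 3 were called higher without control replicate 1. Under the thresholds in the study's methods, read here as a log2 fold change beyond 1 either way and p under 0.05 before adjustment, since the scale and any adjustment are not stated, no receptor rose and 12 fell, against 5.44% of all genes rising and 5.01% falling. These were ERBB4 and 11 receptors with 0 to 4 sense reads in control replicate 3, of which CSF1R was the only unmarked one.

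**Figure D3:**
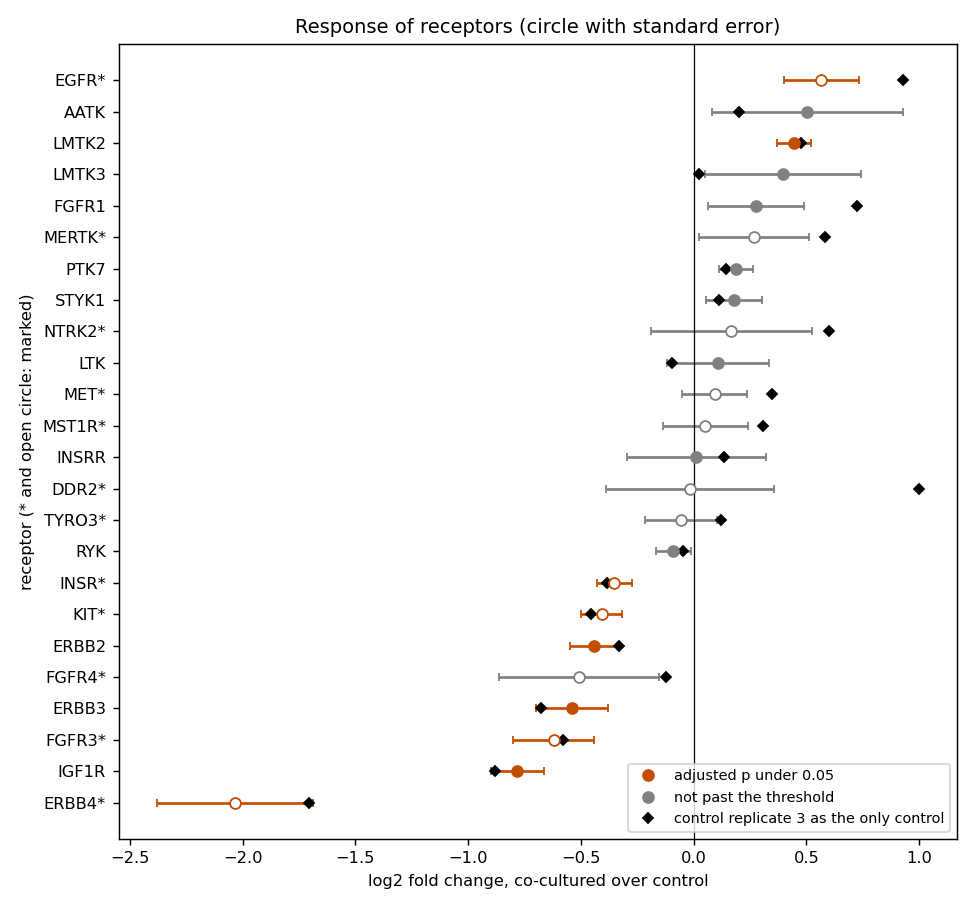
Log2 fold change, co-culture over control, (x axis) of the 24 receptors (y axis) with at least 1 CPM in control replicate 3, with circles for the fit on all 5 libraries, bars for the standard error, orange for an adjusted p under 0.05, open circles and stars for marked receptors, and black diamonds for control replicate 3 as the only control. ERBB4 lies far to the left at -2.03 and IGF1R at -0.78, EGFR lies to the right at 0.57, and the diamond of EGFR is farther out at 0.93.

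Calls in the ERBB family went in both directions. EGFR, the receptor of epidermal growth factor (chr7:55019021-55211628), stood at 58.5, 45.0 and 36.1 CPM in control replicates 1 to 3 and at 66.7 and 71.2 CPM in co-culture. The groups did not overlap, and control replicate 3, the library with the fewest opposite-strand reads of EGFR among the controls, was the lowest. The means were 46.5 ± 11.3 (SD, n = 3) and 69.0 ± 3.16 CPM (SD, n = 2). The fitted log2 fold change was 0.57 (SE 0.165, adjusted p = 0.0268). EGFR is marked, with 147, 92 and 4 opposite-strand reads in control against 6 and 1 in co-culture, and the annotated EGFR-AS1 lies on the other strand within it. With the opposite-strand reads subtracted the log2 fold change was 0.69 (adjusted p = 0.00854), and with control replicate 3 as the only control it was 0.93. The call was lost without control replicate 2 (adjusted p = 0.0631), without co-cultured replicate 1 (adjusted p = 0.108) and without co-cultured replicate 2 (adjusted p = 0.167), and also with counts taken without regard to strand (0.52, adjusted p = 0.073).

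ERBB3, which lacks strong kinase activity and signals as a partner of ERBB2 (chr12:56076799-56103505), stood at 85.0, 129 and 124 CPM in control and at 79.8 and 75.4 CPM in co-culture. Control replicate 1 came close to the co-cultured libraries, and the other two controls lay well above them. The fall was -0.54 on the log2 scale (SE 0.160, adjusted p = 0.0292). It was not called without control replicate 2 (adjusted p = 0.0867), control replicate 3 (0.0851), co-cultured replicate 1 (0.148) or co-cultured replicate 2 (0.186), nor after subtraction of opposite-strand reads (0.061). ERBB2, the ligand-less partner of the family whose gene is HER2 (chr17:39687914-39730426), stood at 34.2, 35.4 and 31.0 CPM in control and at 23.5 and 25.9 CPM in co-culture. All controls were higher, by a log2 fold change of -0.44 for co-culture over control (SE 0.104, adjusted p = 0.0106). PGAP3 and MIEN1 overlap ERBB2 on the other strand, which held 27.0% to 35.9% of the ERBB2 reads in each library. With these reads subtracted the log2 fold change was -0.37 (adjusted p = 0.102), and the call was also lost without co-cultured replicate 1 (adjusted p = 0.136) or replicate 2 (adjusted p = 0.0561).

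ERBB4, a receptor of the neuregulins (chr2:211375717-212538841), fell most of the receptors with at least 10 sense reads in all libraries. It had 55, 76 and 50 sense reads in control and 12 and 14 in co-culture, or 2.92, 4.20 and 2.56 CPM against 0.656 and 0.925 CPM. All 3 controls were well above both co-cultured libraries, with a log2 fold change of -2.03 (SE 0.347, adjusted p = 0.00233), 4.09-fold lower. The gene is marked, but control replicate 3, with no opposite-strand read, held 50 sense reads. With that library as the only control the log2 fold change was -1.71. The call held when each library was left out in turn. As a description within each library, the ratio of EGFR to ERBB3 reads was 0.689, 0.348 and 0.291 in control and 0.836 and 0.945 in co-culture. The ratio of EGFR to ERBB2 reads was 1.71, 1.27 and 1.17 in control and 2.84 and 2.75 in co-culture. In both ratios the co-cultured libraries exceeded every control.

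The receptors of insulin and the insulin-like growth factors were lower. IGF1R, the receptor of IGF1 and IGF2 (chr15:98648539-98964530), stood at 189, 228 and 232 CPM in control and at 137 and 114 CPM in co-culture. No co-cultured library reached any control, and the means were 216 ± 23.8 (SD, n = 3) and 126 ± 16.4 CPM (SD, n = 2), 1.72-fold lower. The log2 fold change was -0.78 (SE 0.117, adjusted p = 0.00122), -0.92 to -0.65 with each library left out in turn, always past the threshold. INSR (chr19:7112255-7294034) stood at 352, 337 and 355 CPM in control and at 267 and 278 CPM in co-culture, with a narrow spread in both groups. Its log2 fold change was -0.35 (SE 0.0769, adjusted p = 0.00759). INSR carries the mark, yet its opposite-strand reads were 2 to 30 beside 4213 to 6941 sense reads, and without control replicates 1 and 2 the log2 fold change was -0.38. Left without co-cultured replicate 1 or replicate 2, it was not called (adjusted p = 0.111 and 0.0727). The ratio of IGF1R to INSR reads was 0.537, 0.678 and 0.653 in control and 0.514 and 0.410 in co-culture. INSRR, the orphan relative of both, had a log2 fold change of 0.01 at 2.92 to 6.64 CPM.

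KIT, the receptor of stem cell factor (chr4:54657918-54740715), stood at 39.8, 43.7 and 43.9 CPM in control and at 32.9 and 31.1 CPM in co-culture. The groups were apart, by a log2 fold change of -0.41 (SE 0.0916, adjusted p = 0.00867). The mark came from 75 and 48 opposite-strand reads in control replicates 1 and 2 against none in the other 3 libraries, and with control replicate 3 as the only control the value was -0.45. The call was lost without co-cultured replicate 1 or replicate 2 (adjusted p = 0.0692 and 0.106). Its relatives of the PDGF receptor class were scarce. PDGFRA, PDGFRB and FLT3 had 12 to 34 sense reads in control replicates 1 and 2 and 0 to 3 in the other 3 libraries. CSF1R, the receptor of CSF1, had 27, 14 and 0 sense reads in control and none in co-culture, beside 63, 58, 38, 31 and 23 opposite-strand reads, so its ratio of 1.85 left it unmarked although its sense reads were in the same 2 libraries.

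Among the fibroblast growth factor receptors, FGFR1 had the highest CPM, at 47.7, 31.5 and 25.5 CPM in control and 42.2 and 42.3 CPM in co-culture. Per kilobase of exon, FGFR3 at 1.91 and FGFR1 at 1.85 CPM lay close in control replicate 3. Co-culture lay above control replicates 2 and 3 and below replicate 1, and the log2 fold change of 0.28 did not pass the test (SE 0.212, adjusted p = 0.349). Without control replicate 1 it was 0.57 (adjusted p = 0.000122). With control replicate 3 as the only control it was 0.72, in a fit that holds no spread among controls. Opposite-strand reads of FGFR1, which LETM2 overlaps on the other strand, were 162, 113 and 41 in control and 59 and 42 in co-culture. FGFR3 had 163, 193 and 181 sense reads in control and 129 and 80 in co-culture, with 35, 30 and 5 against 1 and 4 on the opposite strand. It was lower by a log2 fold change of -0.62 (SE 0.181, adjusted p = 0.0271). That call was lost without co-cultured replicate 1 or 2 (adjusted p = 0.0536 and 0.216), without control replicate 2 or 3 (0.0976 and 0.062) and with opposite-strand reads subtracted (0.141). FGFR4 had 31, 52 and 30 sense reads in control and 23 and 24 in co-culture, with 37, 19 and 0 against 0 and 0 on the opposite strand, a log2 fold change of -0.51 (adjusted p = 0.301).

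MET, the receptor of hepatocyte growth factor, had 992, 756 and 715 sense reads in control and 808 and 744 in co-culture, with 90 and 59 opposite-strand reads in control replicates 1 and 2 and none elsewhere. At 52.7, 41.8 and 36.6 CPM against 44.2 and 49.1 CPM the groups overlapped, with a log2 fold change of 0.09 (adjusted p = 0.651). Without control replicate 1 it was 0.25 (adjusted p = 0.0214), and with control replicate 3 as the only control 0.35. MST1R, the MET relative that binds macrophage-stimulating protein, had 263, 183 and 182 sense reads in control and 194 and 190 in co-culture, with 51, 30 and 0 against 1 and 0 on the opposite strand. Its log2 fold change was 0.05.

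The TAM receptors bind GAS6 and protein S on dying cells. TYRO3 had 205, 241 and 198 sense reads in control and 217 and 153 in co-culture, with 45, 32 and 2 against 0 and 0 on the opposite strand (log2 fold change -0.06). MERTK had 63, 84 and 57 sense reads in control and 88 and 59 in co-culture, with 25 and 22 opposite-strand reads in control replicates 1 and 2 only (0.27). AXL had 29 and 17 sense reads in control replicates 1 and 2 and none in the other 3 libraries. None of these receptors was called.

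The collagen receptor DDR2 had 78, 67 and 30 sense reads in control and 55 and 48 in co-culture, with 25, 22 and 0 against 1 and 0 on the opposite strand. Its log2 fold change was -0.02 on all libraries and 1.0 with control replicate 3 as the only control, so the sign rested on control replicates 1 and 2. Reads of its relative DDR1 were split over 5 entries, 4 of them on patch or haplotype sequences, and are uncertain at each. Summed over the entries they were 60, 54 and 61 in control and 78 and 58 in co-culture. The primary entry, with 8 to 11 reads in each library, had a log2 fold change of 0.14. The entry with the most reads had 47, 39 and 46 in control and 66 and 47 in co-culture, a log2 fold change of 0.52 (adjusted p = 0.0994). NTRK2, the receptor of brain-derived neurotrophic factor, had 78, 35 and 39 sense reads in control and 63 and 39 in co-culture, with 28, 21 and 5 against 2 and 0 on the opposite strand (log2 fold change 0.17, not called).

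LMTK2, a membrane kinase of endosomal traffic (chr7:98106885-98209633), was the unmarked member called higher. It is in the list by its symbol, although its kinase acts on serine and threonine and no ligand is known. It stood at 75.1, 69.3 and 70.0 CPM in control and at 99.2 and 95.6 CPM in co-culture, well apart and with at most 6 opposite-strand reads in any library. The means were 71.5 ± 3.18 (SD, n = 3) and 97.4 ± 2.56 CPM (SD, n = 2). The fitted log2 fold change was 0.45 (SE 0.0766, adjusted p = 0.00238), 0.43 to 0.49 with each library left out and always past the threshold. Its relatives LMTK3 and AATK had log2 fold changes of 0.40 and 0.50 that did not pass the test (adjusted p = 0.412 and 0.393). In both, control replicate 1 was the lowest library, at 2.34 CPM of LMTK3 and 1.12 CPM of AATK, against 5.97 to 6.72 and 3.74 to 4.32 CPM in the others.

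PTK7, a Wnt co-receptor of planar cell polarity, stood at 87.0, 90.7 and 93.3 CPM in control and at 106 and 100 CPM in co-culture. The co-cultured libraries were higher, but the log2 fold change of 0.19 missed the threshold (SE 0.0760, adjusted p = 0.0842), although it passed without control replicate 1 (0.17, adjusted p = 0.0308). RYK, which also binds Wnt ligands, stood at 82.0, 77.4 and 75.9 CPM in control and at 71.9 and 75.5 CPM in co-culture, with a log2 fold change of -0.09 (adjusted p = 0.399). STYK1 stood at 19.2, 24.3 and 23.3 CPM in control and at 26.1 and 24.3 CPM in co-culture, with a log2 fold change of 0.18 (adjusted p = 0.295). Opposite-strand reads of these 3 genes were 4 at most in any library. ROR1, another Wnt receptor, had 9 to 20 sense reads in each library and a log2 fold change of -0.20. LTK, a relative of ALK, stood at 2.76 to 3.96 CPM, with a log2 fold change of 0.11.

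For 12 of the 25 marked receptors the sense reads lay almost wholly in control replicates 1 and 2. They were ALK, AXL, FGFR2, FLT1, FLT3, FLT4, NTRK3, PDGFRA, PDGFRB, RET, ROS1 and TEK. Each had 23 to 182 sense reads in control replicate 1 and 12 to 96 in replicate 2, beside 0 to 4 in control replicate 3, 0 to 6 in co-cultured replicate 1 and 0 to 3 in co-cultured replicate 2. Summed over the 12 genes, sense and opposite-strand reads were 621 and 602 in control replicate 1 and 408 and 408 in replicate 2, whereas the sense sums were 9, 20 and 15 in the other 3 libraries. Reads were thus near evenly divided between the strands in those 2 libraries. ALK, ROS1 and FGFR2 are called lower among them, and these calls are not read as a response, since control replicate 3 stood with the co-cultured libraries at 0 or 1 sense read. RET, the receptor of the GDNF family and GDF15, had 71, 32 and 4 sense reads in control and 4 and 3 in co-culture (adjusted p = 0.052). No fold is given where both control replicate 3 and co-culture were at or under 3 reads.

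The endothelial receptors bear on whether HBMEC RNA entered the tumor samples. KDR, the main receptor of VEGFA, had 37, 27 and 2 sense reads in control and 12 and 4 in co-culture, with 24, 20 and 0 against 0 and 1 on the opposite strand (log2 fold change -1.30, adjusted p = 0.289). The sign turned with the controls used. The log2 fold change was 2.14 with control replicate 3 as the only control, which rests on 2 reads, and 0.15 with opposite-strand reads subtracted. Without control replicate 3 it was -1.85 (adjusted p = 0.0202). No direction is read for KDR. FLT1, FLT4, KDR, TEK and TIE1 together had 4 sense reads in control replicate 3 and 23 and 8 in co-culture. These are few reads among the totals above, and their part in the other results was not tested.

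More of the ligand genes were called higher than lower. Of 68 ligand genes 43 were tested, of which 17 were called higher (39.5%) and 2 lower (4.65%), against 18.4% and 15% of all genes tested. Their median on the log2 scale was 0.59, against -0.03 over all 20360 genes. This list and the lists below were chosen with earlier results of these data known. Their shares and medians beside all genes are therefore a description, and no difference from all genes was tested. VEGFA, the endothelial growth factor, was at 199, 220 and 245 CPM in control and at 721 and 608 CPM in co-culture, a log2 fold change of 1.59 (SE 0.110, adjusted p = 4.05e-05). FGF21, a circulating stress factor, was at 44.9, 23.3 and 23.8 CPM against 151 and 175 CPM (log2 fold change 2.41, adjusted p = 0.000165). GDF15, another stress-responsive factor, was at 7.28, 5.09 and 5.99 CPM against 28.9 and 28.4 CPM (2.22, adjusted p = 3.53e-05). In each of these the co-cultured libraries were at least 2 times any control. FGF2 rose by 1.14 (SE 0.122), PDGFB by 2.0 (SE 0.295) and ANGPT2, an angiopoietin, by 2.12 (SE 0.471) on the log2 scale, the last not without co-cultured replicate 2 (adjusted p = 0.0844). FGF12 and FGF14, also among those called higher (0.64 and 0.78), encode intracellular proteins that do not act on receptors. The number called higher was 10 without co-cultured replicate 1 and 9 without co-cultured replicate 2.

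Of the ligands of EGFR, TGFA, AREG and HBEGF were called higher. TGFA had 101, 73 and 67 sense reads in control and 224 and 230 in co-culture, a log2 fold change of 1.68 (SE 0.202, adjusted p = 0.000418). AREG, amphiregulin, had 14, 8 and 9 sense reads against 46 and 78 (2.77, SE 0.398, adjusted p = 0.000993). HBEGF had 7, 7 and 10 sense reads against 22 and 23 (1.66, SE 0.377, adjusted p = 0.00919), a call lost without either co-cultured library (highest adjusted p = 0.100). BTC, with 8 to 15 reads in every library, gave -0.34 on the log2 scale (adjusted p = 0.57), and EGF, which is marked, had 23, 13 and 0 reads in control and 1 and 0 in co-culture. Of the neuregulins, which bind ERBB3 and ERBB4, NRG1 gave 0.34 (adjusted p = 0.317) and NRG2 -0.65 (adjusted p = 0.395) on the log2 scale. The ligands above were grouped by EGFR alone, and HBEGF and BTC also bind ERBB4.

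For the other called receptors, IGF2 had 8, 14 and 22 reads in control and 15 and 15 in co-culture (log2 fold change 0.21, adjusted p = 0.753). KITLG, the stem cell factor that binds KIT, was at 53.1, 34.5 and 33.9 CPM in control and at 62.1 and 59.8 CPM in co-culture (0.59, adjusted p = 0.0285), a call lost without control replicate 2 or 3 or either co-cultured library (highest adjusted p = 0.152). FGF9, FGF17 and FGF18, which bind FGFR3, had log2 fold changes of -0.30, -0.24 and -0.54, none called. They are not its only ligands, since FGF2, called higher above, is shared among the FGF receptors. NTF3, the ligand of NTRK3, was the larger of the called falls in the list, at 12.6, 8.46 and 8.45 CPM against 2.30 and 2.97 CPM (-1.91, SE 0.252, adjusted p = 0.000643). GAS6 was the other called lower (-0.27, adjusted p = 0.0469), not without control replicate 2 or 3 or either co-cultured library (highest adjusted p = 0.291). HGF, the ligand of MET and marked, had 14, 19 and 5 reads against 29 and 22 (adjusted p = 0.0882).

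Among 35 co-receptors and ligand-binding partners 25 were tested, with 15 called higher (60%), 2 lower (8%), beside 18.4% and 15% of all genes, and a median difference of 0.41 on the log2 scale. Insulin-like growth factor binding proteins hold IGF1 and IGF2 outside the cell. Of the 7 in the list IGFBP2, IGFBP3 and IGFBP5 were called higher, IGFBP4 and IGFBP6 did not pass the test (adjusted p = 0.0953 and 0.0869), and IGFBP1 and IGFBP7 were not tested. IGFBP5 was at 945, 633 and 681 CPM in control and its co-cultured mean was 2503 CPM, a log2 fold change of 1.73 (SE 0.160, adjusted p = 0.000121). IGFBP2 rose by 1.40 on the log2 scale (SE 0.120), from means of 347 ± 37.1 in control to 918 ± 146 CPM in co-culture (SD, n = 3 and n = 2), and IGFBP3 by 1.60 (SE 0.163), from 8.40 ± 0.581 to 25.5 ± 6.41 CPM. SDC1, a heparan sulfate carrier that presents growth factors, rose by 1.28 (SE 0.113), and NGFR, the neurotrophin co-receptor, by 2.05 (SE 0.305). KL, the partner of FGF receptors for FGF23, had 18, 14 and 3 reads against 29 and 36 (1.65, adjusted p = 0.0381), a call lost without control replicate 2 or either co-cultured library (highest adjusted p = 0.247). GPC4 was lower (-1.33, adjusted p = 0.0142), not without either co-cultured library (highest adjusted p = 0.105). The number called higher was 7 without co-cultured replicate 1, 8 without co-cultured replicate 2 and 9 with the shared replicate numbers as a block.

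Of 48 adaptors and proximal effectors 45 were tested, with 15 called higher (33.3%), 5 lower (11.1%), beside 18.4% and 15% of all genes, and a median difference of 0.13 on the log2 scale. GRB10, an adaptor that restrains the insulin and IGF1 receptors, was at 91.5, 83.8 and 86.9 CPM in control and at 254 and 214 CPM in co-culture, a log2 fold change of 1.42 (SE 0.0919, adjusted p = 2.81e-05). IRS1, the docking protein of the same receptors, was at 31.8, 34.0 and 31.2 CPM against 72.8 and 70.7 CPM (1.15, SE 0.0812, adjusted p = 4.14e-05). In both, the co-cultured libraries lay well above every control, although those of GRB10 differed from each other by more than its controls did. VAV3, an adaptor with exchange factor activity, rose by 1.63 (SE 0.204). IRS4 and DOK6 were called lower (-2.02 and -1.62), IRS4 not without either co-cultured library (highest adjusted p = 0.246) and DOK6 not without co-cultured replicate 1 (adjusted p = 0.180). The number called higher was 9 without co-cultured replicate 1.

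Negative regulators were called higher in 16 of 36 tested (44.4%) and lower in 1 (2.78%), of 41 genes, where all genes gave 18.4% and 15%, and their median difference was 0.35 on the log2 scale. ERRFI1, the feedback inhibitor MIG6 that binds and blocks EGFR, had 147, 145 and 177 reads in control and 1821 and 780 in co-culture. The co-cultured libraries differed from each other by more than the controls did, and both were far above them, with a log2 fold change of 3.19 (SE 0.240, adjusted p = 4.99e-05). SPRY1, a Sprouty inhibitor of RAS-MAPK signaling, had 39, 74 and 105 reads against 512 and 262 (2.56, SE 0.314, adjusted p = 0.000456). SPRY4, of the same family, had 46, 23 and 17 reads against 159 and 144 (2.57, SE 0.323, adjusted p = 0.000506). NEDD4, a ubiquitin ligase of growth factor receptors, rose by 1.45 on the log2 scale (SE 0.0815), from a control mean of 127 ± 7.88 to 347 ± 11.7 CPM (SD, n = 3 and n = 2). UBASH3A, a relative of the CBL-binding phosphatases, had 3, 1 and 4 reads against 25 and 25. STS, which entered the list by its symbol, encodes steroid sulfatase and does not act on receptors (1.15, not called without either co-cultured library, highest adjusted p = 0.0799). ADAM10, a protease that sheds receptors and ligands, was the gene called lower (-0.44, SE 0.0959), not without co-cultured replicate 2 (adjusted p = 0.0697). The number called higher was 8 without co-cultured replicate 1 and 9 without co-cultured replicate 2.

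**Figure D4:**
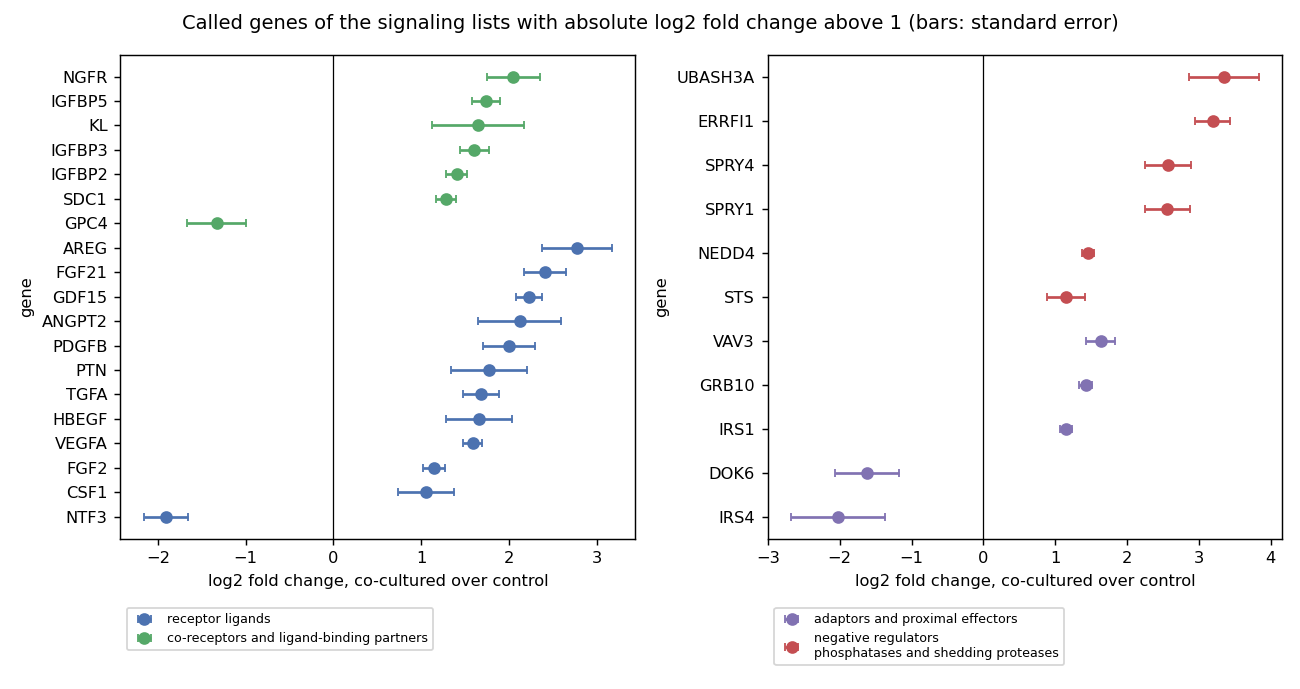
Log2 fold change, co-culture over control, (x axis) with its standard error for the 30 genes (y axis) of the 4 lists that were called with an absolute value above 1, with ligands and co-receptors in the left panel and adaptors and negative regulators in the right. Most genes lie to the right of 0, with UBASH3A at 3.35, ERRFI1 at 3.19 and AREG at 2.77 farthest out, while NTF3, GPC4, IRS4 and DOK6 lie to the left.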

How the data were processed

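RNA-Seq libraries of NCI-H209 (3 control, 2 co-cultured) were compared. The authors deposited raw read counts per gene for each library in the layout of STAR (version 2.6.1b and GRCh38, per the submitters' processing notes), with a column per strand. Their comparison table was used for gene names alone: it also holds normalized means, log2 fold changes and p-values, which were not used. Sense-strand counts were used, and the rows of unmapped, multimapped and unassigned reads (66.4% to 69.3% of reads) were left out. All 58780 GENCODE 29 genes matched, and exon lengths are the union of their exons.

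Genes passing filterByExpr (20360) were fitted with the edgeR 4.0.16 quasi-likelihood test in R 4.3.3 after TMM scaling, with Benjamini-Hochberg adjustment over all of them and SE as the log2 fold change over the square root of F. The biological coefficient of variation was 10.2%. The labels do not say that replicates came from separate cultures, so p-values measure the spread between these libraries. An exact permutation test of 3 against 2 cannot go below 0.1. The script was tested on simulated data.

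The members and lists were chosen with earlier results of these data known. Named in full were called unmarked receptors, uncalled ones of at least 20 CPM, marked receptors with at least 10 sense reads in control replicate 3 or co-culture, list members called beyond an absolute log2 fold change of 1 (up to 8 by p) and ligands of called receptors. FGF12, FGF14, GAS6, ADAM10, CSF1R, ANGPT2 and low-count receptors were named outside this rule. The alternatives comprised scaling by the median ratio or the upper quartile, DESeq2 1.42.0, 2 other filters, a replicate block, each library left out, control replicate 3 alone, unstranded counts and sense minus opposite-strand counts. Promoters came from RefSeq (GRCh38.p14), and plots were drawn with matplotlib 3.10.9.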

Additional observations from a re-analysis of the deposited data

How the results depend on the processing

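Across DESeq2, the other scalings and filters, unstranded counts and control replicate 3 as the only control, the 4 calls on unmarked receptors were kept. Sense minus opposite-strand counts kept 2 of them (LMTK2 and IGF1R), with 1 unmarked receptor then called lower. Unmarked receptors called higher were 2 with control replicate 3 as the only control and 2 with unstranded counts, and with each library left out there were 1 to 3 higher and 1 to 3 lower. With control replicate 3 as the only control DDR2 turned from -0.02 to 1.0, past the threshold. In the same fit KDR turned from -1.30 to 2.14, ROR1 from -0.20 to 0.37, TYRO3 from -0.06 to 0.12 and LTK from 0.11 to -0.10, none of them called either way, and MET and FGFR1 became called. Sense minus opposite-strand counts also turned DDR2, KDR, TYRO3 and FGFR4, without a call. That single-control fit assumes that the lone control varies like the co-cultured pair.

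Ligands called lower were 1 with DESeq2 and 1 with median-ratio scaling. Co-receptors called lower were 1 with DESeq2 and 1 with unstranded counts. Adaptors called lower were 9 with upper-quartile scaling, 3 with at least 10 counts in every library and 3 with unstranded counts. Negative regulators called lower were 2 with control replicate 3 as the only control. With each library left out in turn, ligands gave 9 to 19 higher and 1 to 4 lower, co-receptors 7 to 17 and 0 to 2, adaptors 9 to 18 and 2 to 8, and negative regulators 8 to 18 and 0 to 1. The cause of these changes was not tested, although a fit with fewer libraries has fewer degrees of freedom. The share of all genes called in each of these fits is not given. A change in a list can therefore not be told apart from a change in all genes. Upper-quartile scaling moved the median of all genes by -0.079 on the log2 scale, and no scaling moved it by over 0.1.

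Replicate numbers 1 and 2 are shared by both groups, but the deviations of same-numbered libraries correlated at -0.17 and -0.097, so the numbers were not taken as pairs. With the numbers as a replicate block, co-receptors called higher were 9 and lower 1. INSR, KIT and FGFR3 were no longer called (adjusted p = 0.0889, 0.0605 and 0.0516), and the 4 unmarked receptors kept their calls. The block newly called AXL, FLT1, FLT3, FLT4, KDR, NTRK3, PDGFRA, PDGFRB, RET and TEK lower, and the unmarked CSF1R (adjusted p = 0.000191). CSF1R was also called lower without control replicate 3 (adjusted p = 0.00375). The sense reads of these genes lay mostly in control replicates 1 and 2, so their calls are not read as a response. Depth limits the scarce receptors: with 3 reads at 0.154 to 0.198 CPM, 19 of the 43 stayed under 1 CPM outside control replicates 1 and 2, with DDR1 counted by its primary entry.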
